A study of Mus musculus with 6 samples.

Results

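Conventional Cd4 T cells of the inflamed synovium were examined in scRNA-Seq data of CD45+ cells from the knee joints of mice with antigen-induced arthritis (AIA). The cells were chosen from their own transcripts, as unique molecular identifiers (UMIs) per cell. A member had at least 2 UMIs of Cd3d, Cd3e and Cd3g together, which encode the CD3 chains of the T cell receptor complex, and at least 1 UMI of Cd4, the coreceptor of helper T cells. It had no UMI of Foxp3, the regulator that defines regulatory T cells, of Cd8a or Cd8b1, which encode the cytotoxic T cell coreceptor, or of Csf1r, a receptor of monocytes and macrophages. This rule found 195 members among 32953 cells, a share of 0.592% (95% exact binomial interval 0.512 to 0.681). The levels of these 8 genes are therefore a description of how the cells were picked.

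The study held 6 samples from male C57BL/6J mice that were 8 weeks old when bought. All mice were immunized with 10 μg of methylated bovine serum albumin (mBSA) in adjuvant and received 100 μg of mBSA into the knee on day 21, and synovial cells were collected 3 days later. Vehicle (PBS) was given in 2 samples and 300 μg of PEPITEM, a peptide that limits the migration of T cells through endothelium, in 4 samples. The deposited cells carry a library number from 1 to 6, and no source used here links these numbers to the samples, so vehicle and PEPITEM were not compared. The libraries are not replicates of a group, and values are given for the pooled cells and for each library without a test between them.

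Helper T cells recognize peptides on MHC class II molecules and steer other cells by secreted cytokines and by ligands of the TNF family on their surface. After activation a naive cell that circulates through lymph nodes becomes an effector or memory cell, and its cytokines define the Th1 (IFN-γ), Th2 (IL-4, IL-5, IL-13) and Th17 (IL-17A, IL-17F, IL-22) programs. In arthritis, IL-17A acts on stromal cells and neutrophils, and RANKL, the product of Tnfsf11, drives the formation of bone-resorbing osteoclasts.

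Members were found in every library, at 46, 20, 35, 28, 40 and 26 cells in libraries 1 to 6. They made up 1.38% of the cells of library 1 (95% exact binomial interval 1.01 to 1.83) and 1.20% of library 3 (0.837 to 1.66), against 0.344% of library 2 (0.210 to 0.531) and 0.345% of library 6 (0.225 to 0.505). The intervals of libraries 1 and 3 do not overlap those of libraries 2, 5 and 6, which had 0.428% (0.306 to 0.582) at the highest. Of the cells with at least 2 CD3 UMIs, members were 13.3% pooled, from 8.0% in library 2 to 21.2% in library 1. A member had a median of 8134 UMIs (2097 to 56474) and 2621 detected genes, and the medians per library ran from 6613.5 UMIs in library 6 to 10408 in library 1. All members together held 2113389 UMIs. Intervals cover counting error only.

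**Figure D1:**
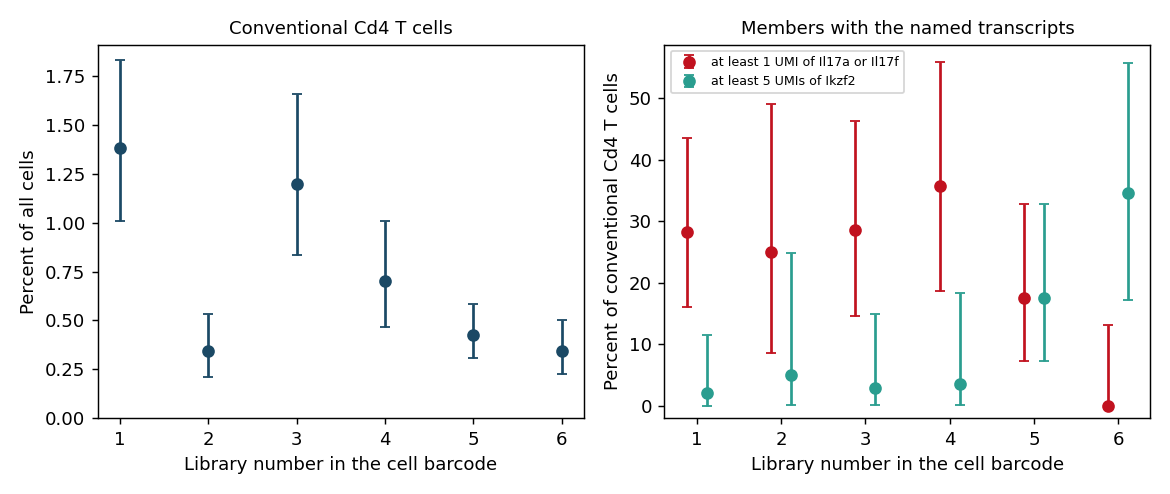
The left plot gives conventional Cd4 T cells as a percent of all cells in each library, and the right plot gives the percent of these cells with at least 1 UMI of Il17a or Il17f or with at least 5 UMIs of Ikzf2. Points are shares and bars 95% exact binomial intervals. Library 6 had no cell with Il17a or Il17f and the highest share with Ikzf2.

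Each step of the rule removed cells. Of 1462 cells with at least 2 CD3 UMIs, 315 had a Cd4 UMI, 229 of these had no Foxp3, 221 had no Cd8a or Cd8b1 and 195 had no Csf1r. Cd4 was sparse, with a median of 2 UMIs per member, and 77 members had 1 Cd4 UMI. Among 125 Foxp3 regulatory T cells gated on CD3 and Foxp3 without a condition on Cd4, 55.2% had a Cd4 UMI, so that the single Cd4 UMI the rule asks for is not found in many cells of this lineage. Just inside the CD3 threshold, 7 of the 8 members with 2 or 3 CD3 UMIs had Trac. Just outside it, 3 of 6 cells with 1 CD3 UMI had Trac, and of 121 cells with no CD3 UMI that met the other conditions only 2 had it.

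Transcripts outside the rule were set against the label. Trac, the T cell receptor α constant gene, was found in 93.8% of members and Trbc2, a β constant gene, in 95.9%, and 194 of 195 had Trac, Trbc1 or Trbc2. Trac stood at 541 CPM (UMIs of a gene per 1000000 UMIs of the population; 95% exact Poisson interval 510 to 573), against 0.569 CPM in B cells. Cd28, the receptor for the costimulatory B7 ligands, was in 88.2% of members at 394 CPM (368 to 422) and ranged from 314 CPM in library 5 to 455 CPM in library 3. Lat, an adapter of the T cell receptor pathway, was in 83.6%. Ncr1 and Eomes of NK cells, Siglech of plasmacytoid dendritic cells, and the fibroblast and red cell markers were at 0, which allows up to 1.42 CPM. The other 4 of 6 NK and innate lymphoid genes had UMIs in 24 members, at a summed 35.5 CPM, with Il1rl1 the most abundant (20.8 CPM). Of 9 γδ and innate-like T cell genes 7 had UMIs, in 35 members, at a summed 83.0, 44.1, 23.8, 35.6, 33.2 and 211 CPM in libraries 1 to 6, with Zbtb16 the most abundant (27.0 CPM). Trdc, the γδ T cell receptor constant gene, was in 2 members, both of library 1, and Trdv4 and Sox13 were at 0. The part of such cells in the results was not tested. No barcode of a member was shared with another library, while 138 barcodes of the whole table occurred in more than 1.

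Transcripts of other cell types were concentrated in a few members. All 17166 UMIs of S100a8 and S100a9, the calprotectin genes of neutrophils, lay in 4 members, found in libraries 2, 5 and 6. The summed level of the 8 neutrophil markers was 0 CPM in library 1, 6964 in library 2, 9.53 in library 3, 5.93 in library 4, 46381 in library 5 and 26786 in library 6. A further member of library 1 held 912 of 984 UMIs of Cd74, the MHC class II invariant chain. In all, 13 members carried a UMI of Cd79a, Ms4a1 or Itgam or at least 5 UMIs of Lyz2, S100a8 and S100a9, and are called mixed cells here. Without them 182 members remained, neutrophil markers fell to a summed 5.91 CPM and B cell markers went from 143 to 37.6 CPM.

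Effector and tissue genes were higher in the members than in Cd8 T cells, and part of the naive genes lower. In comparison with 283 Cd8 T cells chosen by the same kind of rule, 432 of 5913 genes whose mean over both populations was at least 20 CPM were at least 2-fold higher (7.31%) and 240 at least 2-fold lower (4.06%) in conventional Cd4 T cells. With the mixed cells left out of both populations, 429 (7.26%) were higher and 245 (4.15%) lower. The median log2 difference over all these genes was 0.12. Of the 15 effector memory and tissue genes compared, 11 were at least 2-fold higher and 0 lower, with a median log2 difference of 1.26, and without the mixed cells 13 were higher. Of the 12 naive and recirculating genes, 0 were higher and 5 lower, with Lef1 and Klf2 among them and a median of -0.72, while the other 7 were less than 2-fold apart. Of the 5, Dapl1 and Igfbp4 had under 20 CPM in the members and entered through Cd8 T cells. Without the mixed cells 5 were lower too, with Ccr7 (69.9 against 151 CPM) in place of Igfbp4 (15.6 against 30.9 CPM). Against regulatory T cells, 2 of 16 effector genes were higher and 1 lower, and 2 of 10 naive genes were higher and 2 lower (4.61% and 7.60% of all genes), where Cxcr6 and Tcf7 had under 20 CPM in regulatory T cells and entered through the members. These are folds of pooled counts, with no test. A gene under 20 CPM in one population enters only through the other and had to differ, so counts that hold such genes describe the list and support nothing.

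**Figure D2:**
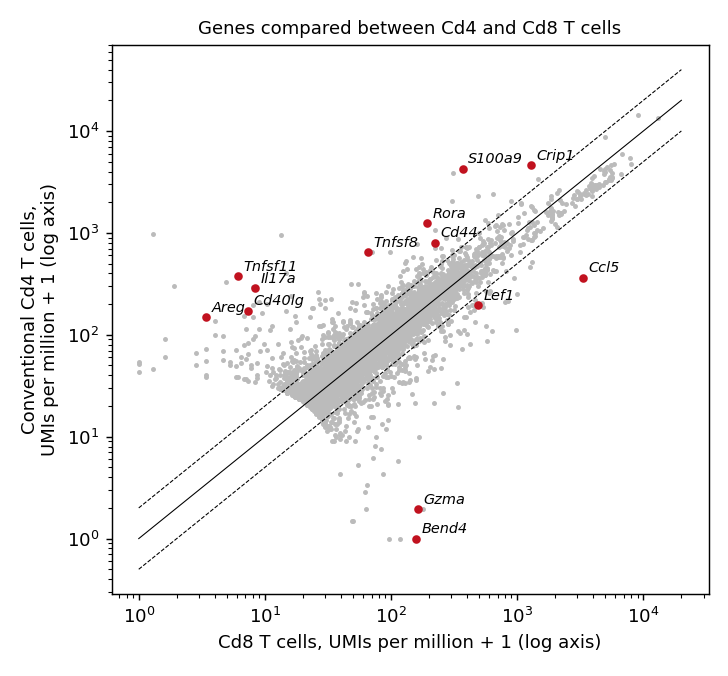
Each point is a gene with a mean of at least 20 CPM over both populations, with its level in Cd8 T cells on the horizontal and in conventional Cd4 T cells on the vertical axis, both as CPM + 1 on log axes. The solid line marks equal levels and the broken lines 2-fold differences. Tnfsf11, Areg, Il17a and Cd40lg lie far above and Ccl5, Gzma and Bend4 far below. S100a9 comes from 4 members.

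Cd44, the hyaluronan receptor of antigen-experienced T cells, was measured at 724, 767, 865, 747, 673 and 1128 CPM in libraries 1 to 6. It was 797 CPM pooled against 220 CPM in Cd8 T cells, 3.63-fold higher (95% counting interval 3.32 to 3.97), and higher in 6 of 6 libraries. After thinning each cell to 3000 UMIs, Cd44 was detected in 76.3% of 194 conventional Cd4 T cells (69.7 to 82.1) and in 39.6% of 280 Cd8 T cells (33.9 to 45.6). B cells, which use Cd44 themselves, had it in 30.2% of thinned cells and give no background for it. In the naive list, Lef1, a transcription factor of naive T cells, was at 193 CPM against 489 in Cd8 T cells and Klf2, which drives lymphocyte egress, at 255 against 599 CPM. S1pr1 of the same list was higher, at 161 against 124 CPM, and Tcf7 was in 61.5% and Klf2 in 59.0% of members.

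Other genes of the effector list were abundant. S100a4, a calcium-binding protein of memory T cells, stood at 2055 CPM against 305 in Cd8 T cells, Crip1 at 4607 against 1291, Lgals1 (galectin-1) at 2385 against 638 and Vim (vimentin) at 2305 against 484. Rora, a nuclear receptor of tissue and Th17 lymphocytes, was one of the steadiest genes, at 1106 to 1322 CPM over the libraries and 1241 CPM pooled, 6.47-fold above Cd8 T cells (5.93 to 7.07). Icos, a costimulatory receptor, stood at 715 CPM against 220. Cxcr6, the receptor for the tissue chemokine CXCL16, was at 242 CPM and in 62.1% of members, against 82.7 CPM in Cd8 T cells. Library 2 had the highest Cxcr6, 480 CPM, and the other 5 libraries lay between 179 and 254 CPM.

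A minority had transcripts of Ccr7, the chemokine receptor that guides T cells into lymph nodes. Ccr7 was measured at 151, 116, 112, 41.5, 15.1 and 58.0 CPM in libraries 1 to 6, with libraries 4 to 6 the lowest. It was 90.8 CPM pooled, against 159 CPM in Cd8 T cells, and was detected in 43 members (22.1%, 16.4 to 28.5). A single cell of library 1 held 46 of its 192 UMIs, and 130 of the 192 lay outside the mixed cells. With the mixed cells left out of both populations, Ccr7 was at 69.9 CPM against 151 CPM in Cd8 T cells, more than 2-fold lower. With the mixed cells left out, the 40 members with Ccr7 had 357 CPM of Lef1 against 167 CPM in the other 142. Tcf7, of the same family, was at 217 against 125 CPM and S1pr1, the egress receptor for sphingosine 1-phosphate, at 267 against 139 CPM. The same cells had less Cd44 (524 against 925 CPM), Cxcr6 (138 against 282) and Ifng (19.3 against 120).

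The surface ligands of T cell help were among the genes with the widest folds over Cd8 T cells. Of the 14 cytokine and TNF ligand genes compared, 6 had under 20 CPM in Cd8 T cells and entered through the members, so values are given by gene. Tnfsf11 (chr14:78277445-78308043, minus strand, GRCm38), which encodes RANKL, was measured at 514, 66.2, 410, 406, 272 and 282 CPM in libraries 1 to 6, with library 2 the lowest. It was found in 89 members (45.6%) at 373 CPM pooled, against 5.17 CPM in Cd8 T cells, a 72.2-fold difference (44.8 to 125) with the same direction in 6 of 6 libraries. Thinned to equal depth, 31.4% of members (25.0 to 38.5), 1.07% of Cd8 T cells (0.222 to 3.1) and 0.103% of B cells (0.00261 to 0.573) had a Tnfsf11 UMI, where the median depths before thinning were 8134, 10719 and 5939 UMIs. Tnfsf11 was at 79.4 CPM in the CD3 cells without Cd4 and Cd8 transcripts.

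Cd40lg (chrX:57212143-57224042, plus strand), the ligand by which helper cells license B cells and antigen-presenting cells, was in 109 members (55.9%). Its level was 227, 93.8, 164, 205, 99.6 and 158 CPM in libraries 1 to 6 and 172 CPM pooled, against 6.39 CPM in Cd8 T cells and 19.8 CPM in regulatory T cells. Tnfsf8 (chr4:63831308-63861347, minus strand), the CD30 ligand, stood at 648 CPM against 64.2 and 32.4 CPM, and no library was under 468 CPM. Tnfrsf4, the OX40 receptor induced on activated Cd4 T cells, was 42.1-fold above Cd8 T cells (27.8 to 67.0), at 295 CPM, but lower than in regulatory T cells at 1627 CPM. Areg, the epidermal growth factor family member amphiregulin, was at 147 CPM against 2.43 in Cd8 T cells and 459 in regulatory T cells.

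**Figure D3:**
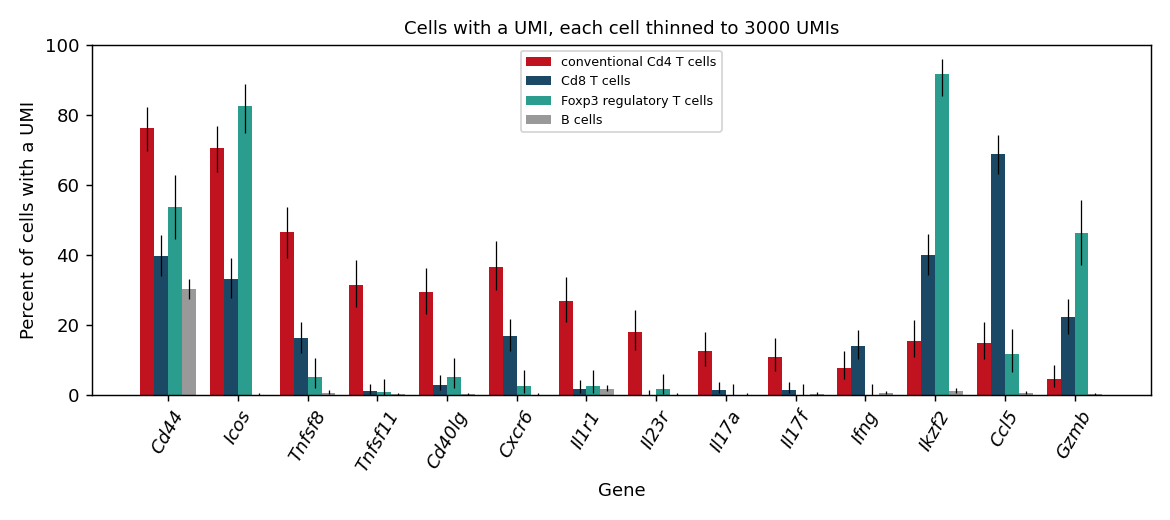
Bars give the percent of cells with at least 1 UMI of each gene after each cell was thinned to 3000 UMIs, with 95% exact binomial intervals, for 194 conventional Cd4 T cells, 280 Cd8 T cells, 121 Foxp3 regulatory T cells and 970 B cells. Tnfsf11, Il17a, Il17f, Il1r1 and Il23r are found in more conventional Cd4 T cells than in any other population shown, and Ccl5 and Gzmb in fewer than in Cd8 T cells.

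Pooled over the libraries, Il17a (33 members) and Il17f (31) were each detected in more members than Ifng (26) or Il4, Il5 or Il13 (10 together). After thinning, the intervals of the shares with Il17a (12.4%, 8.09 to 17.8) and Ifng (7.73%, 4.39 to 12.4) overlapped. Library 6 had the reverse order, with Ifng in 6 members and neither Il17a nor Il17f. Il17a lies at chr1:20730905-20734496 (plus strand, GRCm38) and Il17f at chr1:20777146-20790617 (minus strand), with 42649 bases between the genes. The nuclear receptor encoded by Rora binds DNA sites with the half-site AGGTCA, so the RefSeq promoters of both genes (GRCm38.p6, 250 bases before to 50 after the gene start in RefSeq) are shown with AGGTCA or its reverse complement TGACCT in capitals.
Il17a, chr1:20730655-20730954, plus strand: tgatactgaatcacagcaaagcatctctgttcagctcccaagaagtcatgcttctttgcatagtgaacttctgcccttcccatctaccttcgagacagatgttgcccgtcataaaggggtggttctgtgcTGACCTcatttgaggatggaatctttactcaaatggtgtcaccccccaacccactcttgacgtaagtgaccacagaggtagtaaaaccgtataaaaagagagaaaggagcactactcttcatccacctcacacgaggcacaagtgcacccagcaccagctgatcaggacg
Il17f, chr1:20784221-20784520, minus strand: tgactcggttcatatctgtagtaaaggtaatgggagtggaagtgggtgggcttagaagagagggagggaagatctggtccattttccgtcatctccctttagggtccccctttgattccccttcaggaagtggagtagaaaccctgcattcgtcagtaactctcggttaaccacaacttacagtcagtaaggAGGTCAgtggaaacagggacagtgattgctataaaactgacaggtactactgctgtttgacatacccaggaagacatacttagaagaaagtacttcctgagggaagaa
The Il17a window held TGACCT once, 120 bases before the RefSeq gene start, and the Il17f window AGGTCA once, 58 bases before that of Il17f. The RefSeq start of Il17a is the start of the span given above, while that of Il17f lies within the longer GENCODE span, so the Il17f window is inside that span and not at its end. These letters, searched on both strands, occur in 5340 of all 32851 promoter windows of this length (16.3%). Of the 9 genes of the Th17 list with a window, 4 have them, namely Il17a, Il17f, Il23r and Ccr6. A match is therefore a description and not a binding site.

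Il17a was detected in 33 members and Il17f in 31, with 19 cells sharing both. Il17a stood at 491, 55.2, 310, 323, 169 and 0 CPM in libraries 1 to 6, where the 0 of library 6 allows up to 12.4 CPM. Il17f stood at 307, 77.3, 52.4, 222, 75.5 and 0 CPM. Both genes were thus measured in the members of 5 libraries, and library 6 had neither in its 26 members. Pooled, Il17a was at 284 CPM (262 to 308) against 7.30 CPM in Cd8 T cells and 72.3 CPM in CD3 cells without Cd4 and Cd8, which also hold γδ T cells. No regulatory T cell had an Il17a UMI, and against the 2.70 CPM which that allows Il17a was at least 105-fold higher in conventional Cd4 T cells.

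The expressing cells were few and unequal. A single member of library 1 held 150 of the 601 Il17a UMIs, and without library 1 the level was 202 CPM for Il17a and 90 CPM for Il17f. Members with Il17a or Il17f numbered 45 (23.1%, 17.4 to 29.6), with 13, 5, 10, 10, 7 and 0 cells in libraries 1 to 6. The share was highest in library 4, at 35.7% (18.6 to 55.9), and the 0 of 26 cells in library 6 allows a share of cells with a UMI of up to 11.5% by 3 counts, or 13.2% as the exact binomial upper bound. After thinning, 12.4% of members (8.09 to 17.8) had Il17a, against 1.43% of Cd8 T cells (0.391 to 3.62) and 0 of 970 B cells, which allows up to 0.309%. Members of library 6 were also the shallowest, as given above, and had the lowest Trac (348 CPM) and Trbc2 (597 CPM). The part of depth in the absence of Il17a there was not tested.

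**Figure D4:**
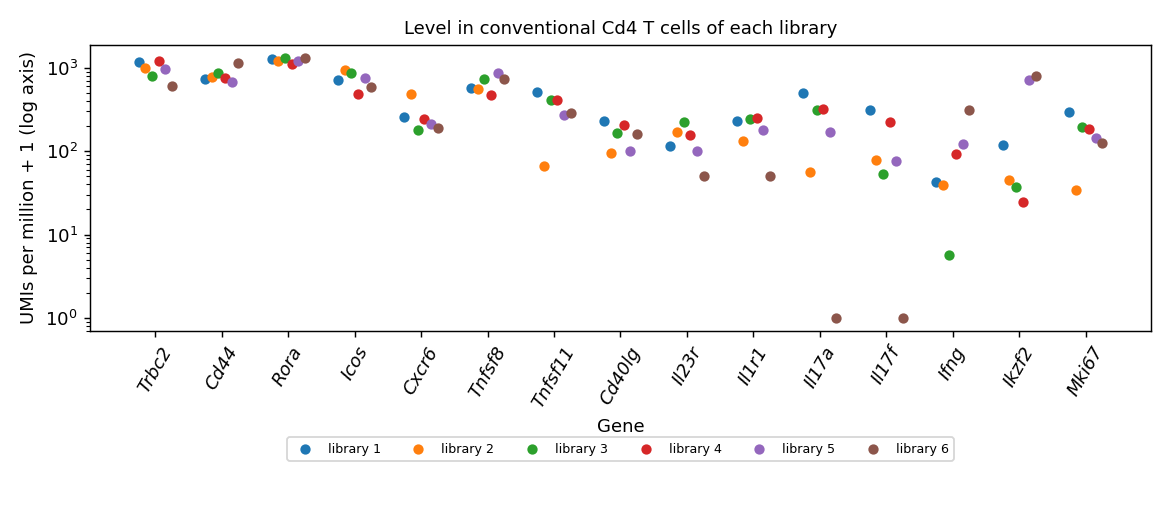
Points give the level of each gene, as CPM + 1 on a log axis, in the conventional Cd4 T cells of libraries 1 to 6, distinguished by color. Rora, Cd44 and Tnfsf8 lie close together, while Il17a and Il17f are at 0 in library 6 and Ikzf2 is highest in libraries 5 and 6.

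Receptors of the Th17 program were found beside the cytokines. Of the 12 Th17 genes, 10 could be compared with Cd8 T cells, and 8 of these had under 20 CPM in Cd8 T cells and entered through the members, so a count over them says nothing more. Il23r, the receptor for the cytokine that sustains Th17 cells, was at 137 CPM in 52 members, Il1r1, the IL-1 receptor, at 199 CPM in 79, and the chemokine receptor Ccr6 at 49.2 CPM in 45. Il22 was in 12 members at 32.6 CPM. In the cells with Il17a, Il23r was detected in 19 of 33 (57.6%), Il1r1 in 27 (81.8%) and Ccr6 in 19 (57.6%), against 20.4% and 32.1% and 26 of the 162 cells without Il17a. In library 6, Ccr6 was at 0, Il23r at 49.8 CPM and Il1r1 at 49.8 CPM, each the lowest of the 6 libraries.

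The cells with Il17a or Il17f also carried more of the helper ligands. With the mixed cells left out, Tnfsf11 was at 646 CPM in 43 such cells and 287 CPM in the other 139 members, Tnfsf8 at 1032 against 496 and Lta (lymphotoxin α) at 424 against 60.7. Lta came from few cells, 9 of the 43 and 14 of the 139. Tnfsf11 was detected in 26 of the 33 cells with Il17a (78.8%) and in 63 of the 162 without (38.9%). Of the Th1 list, Ccl5 was at 5.21 against 481 CPM and Il12rb2, a chain of the IL-12 receptor, at 6.95 against 131 CPM, and Ifng, Cxcr3, Il18rap and Stat4 were also lower with intervals of the ratio below 1, the narrowest difference being that of Stat4 (560 against 791 CPM). The intervals for Il18r1 (582 against 573 CPM), Tbx21, Hopx and Runx3 included 1. Library 6 had the highest Ifng and no cell with Il17a or Il17f, so its cells stand only among the others. Without library 6 the level of Ifng in all members was 56.1 CPM. The part of library 6 in these differences was not tested. Members with Il17a or Il17f had a median of 9217 UMIs and the others 7666, and the part of depth in the detection of these genes was not tested. The split was made on 2 of these genes and the other genes are described without a test. Among γδ and innate-like T cell genes, Tcrg-C1 was at 26.1 against 5.45 CPM (6 of 43 against 4 of 139 cells). Trdc, Tcrg-C2 and Zbtb16 had no UMI in the 43 cells. The part of γδ T cells in these differences was not tested.

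Ifng, which encodes IFN-γ, was found in 26 members (13.3%) at 84.7 CPM (72.7 to 98.1). Its library values were 41.5, 38.6, 4.76, 91.9, 121 and 307 CPM, lowest in library 3 and highest in library 6. These levels rest on 8, 4, 1, 5, 2 and 6 cells, so that their order is not that of the shares of cells. Cd8 T cells had 140 CPM, and conventional Cd4 T cells were lower in 4 of 6 libraries. Tbx21, the Th1 regulator T-bet, was detected in 16 of the 26 cells with Ifng (61.5%) and in 37 of the 169 without (21.9%). Members with Ifng had a median of 10133.5 UMIs and the others 7755, and the part of depth in this detection was not tested. Ifng was found in 5 of the 33 cells with Il17a (15.2%) and in 0 of the 31 with Il17f. Of the 11 Th1 genes compared with Cd8 T cells, only Il18r1, the IL-18 receptor, was at least 2-fold higher (541 against 225 CPM), and Il12rb2, Ccl5, Eomes and Runx3 were lower (7.31% and 4.06% of all genes). The share higher is near that of all genes, and 3 were lower without the mixed cells. Eomes had no UMI in the members and entered only through Cd8 T cells.

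Genes of the cytotoxic list differed among the members with Ifng. With the mixed cells left out, the 24 cells with Ifng had 359 CPM of Gzmb, a granule protease, against 19.1 CPM in the other 158, and 582 against 153 CPM of Nkg7. Gzmb came from 6 of the 24 and Nkg7 from 19. Ctsw, a protease of cytotoxic cells, was at 123 against 34.9 CPM, Fasl, the Fas ligand gene, at 118 against 49.3 and Klrc1 at 121 against 81.5. The activating NK receptor gene Klrk1 was at 112 against 144 CPM and Klrd1 at 17.6 against 21.0 CPM, both with intervals of the ratio that included 1. Il7r, the receptor for the survival cytokine IL-7, was at 141 against 498 CPM and Ccr6 at 2.94 against 63.8 CPM. Heat shock genes were in part higher, with Hspa1a at 179 against 82.2 CPM and Hspa1b at 171 against 76.3. Dnajb1 was at 171 against 78.9 CPM and Hsph1 at 185 against 78.3, while Hspa8 was at 1599 against 1576. The part of tissue digestion in these values was not tested. Among γδ and innate-like T cell genes, Trdc was at 44.1 against 1.32 CPM (1 cell in each set). Tcrg-C2 was at 38.2 against 4.60 CPM and Zbtb16 at 79.4 against 19.1, from 2 and 3 of the 24. Tcrg-C1 and Cd163l1 had no UMI in the 24 cells, against 14.5 and 9.21 CPM. Klre1, an NK cell marker, was at 26.5 against 3.29 CPM, from 2 of the 24. The part of γδ, innate-like or NK cells in these differences was not tested. Without library 6 the level of Ifng in all members was 56.1 CPM.

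Th2 cytokines were confined to few cells. Il4 was in 7 members, Il5 in 4 and Il13 in 4, and 3 cells had both Il5 and Il13, while Il5 and Il13 were seen in libraries 3 and 5 only. Csf2, which encodes GM-CSF, was in 15 members at 79.0 CPM, and all 15 had Cd40lg and 12 had Tnfsf11. Il2, the T cell growth factor, was in 14 members at 99.4 CPM, but 140 of its 210 UMIs lay in a single cell of library 1 and the level without that library was 40.4 CPM. Lta stood at 161 CPM in 25 members, from 0 in library 2 to 383 CPM in library 3, and at 106 CPM without library 3. In all, 91 members (46.7%) had at least 1 UMI of Il17a, Il17f, Il22, Ifng, Il2, Csf2, Il4, Il5 or Il13.

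A set of cells with Ikzf2 (chr1:69531214-69687245, minus strand), the factor Helios of regulatory and some unconventional T cells, stood out by library. Ikzf2 was measured at 118, 44.1, 35.7, 23.7, 710 and 800 CPM in libraries 1 to 6, and at 251 CPM pooled, which was 166 CPM without library 5. Of 20 members with at least 5 Ikzf2 UMIs, 7 were in library 5 and 9 in library 6, where they made up 17.5% (7.34 to 32.8) and 34.6% (17.2 to 55.7), and each other library had 1. With the mixed cells left out, these 19 cells had 1844 CPM of Tox against 209 CPM in the other 163 members, 226 against 14.5 CPM of Zbtb16, the PLZF factor of innate-like T cells, and 241 against 17.4 CPM of Izumo1r, the folate receptor 4 gene. They had no UMI of Il17a, Il17f, Il23r or Il1r1, 36.4 CPM of Tnfsf11 against 427, and 343 CPM of Cd44 against 863. Library 6, the source of 9 of the 20 cells, had no Il17a or Il17f in any member and the lowest Il23r and Il1r1. The part of the library in these differences was not tested.

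Zbtb16 in these cells came from 3 of the 19, so it did not mark them all. Trdc was at 109 against 1.16 CPM, from 1 of the 19 and 1 of the 163 cells, while Tcrg-C1 and Cd163l1 had no UMI in the 19. Markers of other cell types were also higher in the 19 cells. Ighm, the immunoglobulin μ chain of B cells, was at 204 against 18.6 CPM (10 of 19 against 24 of 163 cells), Cd74 at 109 against 12.8, Mrc1, a macrophage receptor, at 131 against 0 (2 of 19 cells) and Cybb at 36.4 against 5.22. Their part in the Ikzf2 pattern was not tested. Ifng was at 357 against 73.7 CPM, from 4 of the 19 cells. Cells with at least 5 Ikzf2 UMIs had a median depth of 6105 UMIs against 8354, and more of the heat shock gene Hspa1a (372 against 78.3 CPM), which tissue digestion can induce and which was found in 6 of the 19. Over the libraries, Hsph1, another heat shock gene, was at 54.8, 77.3, 50, 71.1, 148 and 278 CPM, highest in libraries 5 and 6 as Ikzf2 was. The part of digestion stress in the Ikzf2 pattern was not tested, and regulatory T cells without a Foxp3 UMI cannot be told apart from these cells by Ikzf2 alone. Regulatory T cells had a median of 3 Foxp3 UMIs, and 28 of 125 had 1. Other genes of regulatory T cells went both ways in the 19 cells. Ctla4 was higher, at 612 against 226 CPM in the other members, as was Tnfrsf9, at 510 against 161. Capg was lower, at 117 against 331 CPM. The intervals of the ratio included 1 for Tnfrsf4 (379 against 284 CPM) and Il2ra (182 against 217 CPM).

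Against the 125 Foxp3 regulatory T cells, 280 of 6077 genes were at least 2-fold higher in conventional Cd4 T cells (4.61%) and 462 at least 2-fold lower (7.60%), with a median log2 difference of -0.04 over all genes. Leaving out mixed cells gave 365 higher (6.07%) and 487 lower (8.10%). Library 3 held 47 of the regulatory T cells. Of the 14 cytokine and TNF ligand genes compared, 8 had under 20 CPM in regulatory T cells and entered through the members. Of the 8 genes of the regulatory list, 0 were higher and 7 lower, with a median of -2.85, a direction in part set by the condition on Foxp3. Of the 7, Lrrc32 had under 20 CPM in the members and entered through regulatory T cells.

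Ifng and Csf2 had no UMI in regulatory T cells and were at least 31.3-fold and at least 29.2-fold higher in conventional Cd4 T cells against the 2.70 CPM that this allows. Tnfsf11 was 37.7-fold higher, Cxcr6 24.4-fold (242 against 9.91 CPM) and Tnfsf8 20-fold, each in 6 of 6 libraries. Themis, a regulator of T cell receptor signaling, was at 722 CPM against 84.7, and Tcf7 at 144 against 17.1. Il2ra, the IL-2 receptor α chain, was at 201 against 1240 CPM, Ctla4, the inhibitory receptor for B7, at 232 against 2049 and Ikzf2 at 251 against 3534 (166 without library 5), all lower in 6 of 6 libraries. Among the 12 genes with the widest folds in the lower direction, 1, Lrrc32, is in the regulatory list and another, Gzmb, is a granule protease. Itgae, the CD103 integrin chain, was 54.1-fold lower, Klrg1 38.5-fold and Il1rl1, the IL-33 receptor, 29.1-fold. Rora (1241 against 1329 CPM) and S100a4 (2055 against 2434) were less than 2-fold apart.

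**Figure D5:**
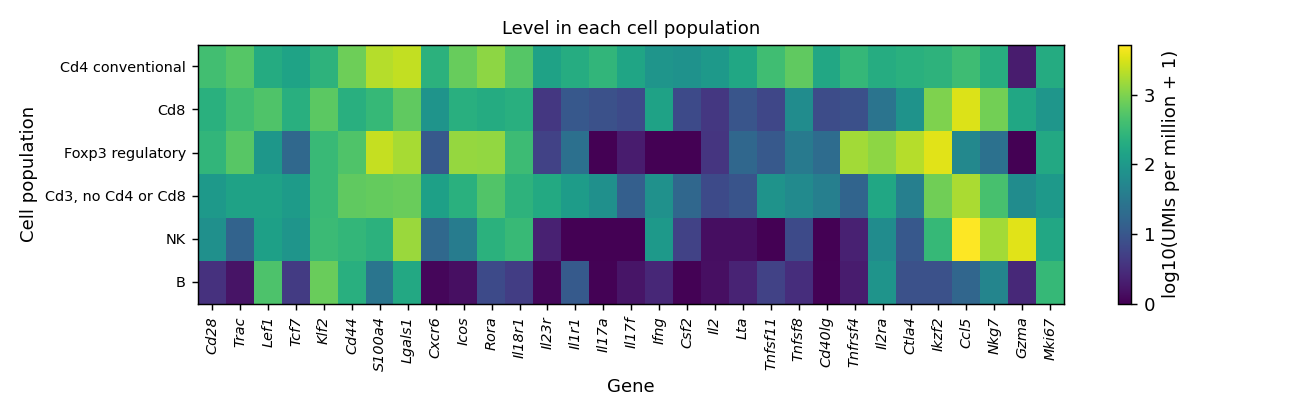
Color gives the log10 of CPM + 1 for the genes on the horizontal axis in the 6 populations on the vertical axis, over all cells of each population pooled. Conventional Cd4 T cells share S100a4, Icos and Rora with regulatory T cells and differ from them in Il17a, Tnfsf11, Cxcr6, Il2ra, Ctla4 and Ikzf2.

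The 659 CD3 cells without Cd4 and Cd8 transcripts hold γδ T cells and other T cells whose coreceptor was not detected, and 181 of them were mixed cells by the same definition. Against them, 351 of 5970 genes were at least 2-fold higher in conventional Cd4 T cells (5.88%) and 435 lower (7.29%). Without the mixed cells, the counts were 213 (3.55%) and 271 (4.52%). Trdc was 33.5-fold lower in conventional Cd4 T cells, at 8.04 against 269 CPM. Igfbp7 was 66.4-fold higher (31.2 to 169), Tnfrsf4 19.6-fold (295 against 15.0 CPM), Lta 19.5-fold and Tnfsf8 11-fold. Without the mixed cells these folds were 40.8 for Igfbp7, 13.9 for Tnfrsf4, 13.9 for Lta and 7.70 for Tnfsf8. Ermn, which encodes the cytoskeletal protein ermin, was at 52.5 CPM in 32 members, with 1 UMI in these cells and none in Cd8 T cells, against which it was at least 57.6-fold higher. Il17a differed less, at 284 against 72.3 CPM, a 3.93-fold difference that was 2.62-fold without the mixed cells.

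Cytotoxic genes were lower than in Cd8 T cells. Of the 8 compared, 6 were at least 2-fold lower and 0 higher (4.06% and 7.31% of all genes), with a median log2 difference of -2.03, and Gzma entered only through Cd8 T cells. Against regulatory T cells, 5 of 7 were at least 2-fold higher (Nkg7, Ctsw, Klrk1, Klrc1 and Fasl) and Gzmb and Klrd1 lower (4.61% and 7.60% of all genes), where 4 of the 7 had under 20 CPM in regulatory T cells and entered through the members. Ccl5, a chemokine of cytotoxic and memory T cells, was 9.19-fold lower (361 against 3312 CPM), and Gzma, a granule protease, had 2 UMIs in the members against 162 CPM in Cd8 T cells. The NK receptor Klra7 was at 0.946 against 178 CPM. Bend4 and Eomes had no UMI in the members, which puts them at least 110-fold and at least 66.6-fold lower. Among the genes with the widest folds over Cd8 T cells, Cybb, a subunit of the phagocyte oxidase, went from 65.3 CPM to 7.52 CPM when the mixed cells were left out. Penk, which encodes proenkephalin, was at 50.2 CPM in 7 members and at 0 in Cd8 T cells. Nkg7 was still found in 69 members, at 213 against 846 CPM.

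Migration genes bear on the question of the study, since PEPITEM acts on the passage of T cells into tissue. PEPITEM is released from the protein of Ywhaz when adiponectin acts on B cells, and it signals to the endothelium through cadherin-15. In the members, Adipor2 was at 148 CPM in 69.2% of cells and Adipor1 at 60.1 CPM in 39.5%, both encoding adiponectin receptors, and Appl1, their adapter, was at 102 CPM. Adipor2 was 2.05-fold above Cd8 T cells (1.72 to 2.43), in 6 of 6 libraries, and level with regulatory T cells (152 CPM). Ywhaz was at 368 to 483 CPM over the libraries, a narrow range. Cdh15 had no UMI, which allows up to 1.42 CPM. S1pr1 was at 161 CPM, between 84.5 CPM in library 5 and 265 CPM in library 2, and S1pr4 at 57.7 CPM.

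Of 8 chemokine receptor genes compared with Cd8 T cells, Ccr4, Ccr6 and Cxcr6 were at least 2-fold higher, of which Ccr4 and Ccr6 had under 20 CPM in Cd8 T cells and entered through the members. Ccr4, a receptor of skin and Th2 homing, was at 69.6 against 4.87 CPM. Ccr2, the receptor for CCL2, was in 41.0% of members at 103 CPM. Among 8 integrin and adhesion genes, Itgb7 and Cd44 were at least 2-fold higher. Itgal, the LFA-1 chain, and Selplg, which encodes the P-selectin ligand, were at 229 and 331 CPM.

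Proliferation genes were present. Of the 13 cell cycle genes compared with Cd8 T cells, 10 were at least 2-fold higher and 0 lower (7.31% and 4.06% of all genes), and 3 of the 13 had under 20 CPM in Cd8 T cells. Mki67, the Ki-67 proliferation antigen, was at 294, 33.1, 195, 184, 142 and 124 CPM in libraries 1 to 6, and Top2a, a topoisomerase of dividing cells, at 407, 33.1, 288, 290, 269 and 182 CPM. Library 2 had the lowest value of both. At least 1 of the 2 genes was found in 80 members (41.0%), with median depths of 10319.5 and 7283 UMIs with and without them. Of the 45 members with Il17a or Il17f, 25 were among these 80.

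Interferon and stress genes differed from Cd8 T cells in opposite directions. Of 10 interferon response genes, 5 were at least 2-fold higher and 0 lower (7.31% and 4.06% of all genes), with a median log2 difference of 1.05. Ly6a, the Sca-1 surface protein, was at 776 against 159 CPM. A single member of library 1 held 205 of the 384 UMIs of Isg15. Of 6 heat shock genes, 3 were lower (Hspa1a, Hspa1b and Hsph1) and 0 higher (4.06% and 7.31% of all genes), with a median of -1.26. Of 14 recent activation genes, 1 was higher (Irf4) and 4 lower (Nr4a2, Jun, Dusp2 and Myc, the last of which entered only through Cd8 T cells), against 7.31% and 4.06% of all genes, with a median of 0.13 that lay close to the 0.12 of all genes.

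The most abundant transcripts that were neither ribosomal nor mitochondrial were Tmsb4x at 14293 CPM, Malat1 at 13348 and Actb at 8660, which are high in most leukocytes. The 3′ UMI counts do not grow with transcript length. S100a9 and S100a8 entered the 12 most abundant genes through the 4 members described above and were at 0 CPM in the 182 members left after the mixed cells were removed. The 8 genes with the widest range over the libraries, S100a9, S100a8, Camp, Ngp, Lcn2, Lyz2, Ltf and Cd74, were at most 19.9 CPM each after the mixed cells were left out.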

How the data were processed

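Cells of the inflamed synovium were measured by droplet scRNA-Seq with UMIs. Per the labels and the methods of the study, the authors aligned reads to mm10 with Cell Ranger (version 7 in the submitters' processing notes), removed ambient RNA and doublets, and filtered cells. They deposited whole UMI counts of 20394 genes in 32953 cells, with 47273569 to 123367661 UMIs per library and no scaling for depth. Ambient correction and doublet removal can lower rare transcripts, and no further doublet caller was run here.

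Cells were gated on raw counts. Mixed cells are those with a UMI of Cd79a, Ms4a1 or Itgam or at least 5 of Lyz2, S100a8 and S100a9. The members, populations and gene lists were chosen with earlier results of these data known. UMIs were summed per population and scaled to 1000000 (CPM). Genes with a mean of at least 20 CPM over both populations, outside the rule, were compared by a fold of 2, and intervals are exact (95%, Poisson, binomial or conditional binomial). A count of 0 was read as up to 3 counts. Shares of cells were thinned to 3000 UMIs per cell, which left out 1 member, with 1000 B cells drawn as background. UMIs of a cell are not independent between cells, so pooled intervals are too narrow for a statement about mice. Genes named were those of the lists, the 12 with the widest fold in each direction and the same direction in at least 5 of 6 libraries, the 12 most abundant, and the 8 with the widest library range above 100 CPM. The subsets by Il17a or Il17f, Ccr7, Ifng and Ikzf2, and the genes described in them, were chosen after their values were seen. Gene positions are from GENCODE M21. Computations ran in scipy 1.17.1, numpy 2.4.6 and pandas 2.3.3 under Python 3.11.15. The fold counts were also run on simulated Poisson sums, which hold no differences between cells and cannot test folds that rest on few cells. Some genes of the lists are not reported here.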

Additional observations from a re-analysis of the deposited data

How the results depend on the processing

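No paired analysis was possible because the cells carry library numbers that no source links to the replicate numbers of the samples, and no result comes from a test. Requiring at least 2 Cd4 UMIs lowered the share of members to 0.358% of cells, and CD3 thresholds of 1 or 3, no condition on Csf1r, leaving out mixed cells and the median over libraries kept it within the interval of 0.512 to 0.681%. Leaving out each library in turn gave 0.503% (without library 1) to 0.665%. Without thinning the shares of members with a UMI were 86.7% for Cd44 and 13.3% for Ifng, against 76.3% and 7.73%, and thinning to 2000 UMIs gave 59.5% for Cd44. Leaving out libraries gave 74.1 to 77.6% for Cd44, 6.55 to 9.43% for Ifng and 10.8 to 14.3% for Il17a. The numbers of genes at least 2-fold higher and lower than in Cd8 T cells, 432 and 240, depended on the filter: 917 and 540 at a mean of 5 CPM, 250 and 126 at 50 CPM, and 1811 and 1047 with 1 UMI in each population, with more or fewer genes compared. They were 421 to 489 and 236 to 261 with a library left out, 338 and 215 with means over cells, and 339 and 283 relative to the median fold. Of 27 gene levels, 19 left their Poisson interval when cells were weighted equally, and 9 when mixed cells were left out. The share with Il17a or Il17f was 21.0 to 26.6% over the libraries left out, and that with at least 5 Ikzf2 UMIs 6.51% without library 6 to 12.8%, an alternative added after seeing the data.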

Other observations

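Costimulatory and checkpoint receptors were mixed between members and Cd8 T cells. Of 9 such genes compared, Icos, Ctla4 and Tnfrsf4 were at least 2-fold higher in conventional Cd4 T cells and Cd27, a TNF receptor of naive and central memory cells, was lower (49.2 against 159 CPM). Tnfrsf4 had under 20 CPM in Cd8 T cells and entered through the members, and 7.31% of all genes were higher and 4.06% lower. Pdcd1, which encodes PD-1, was in 46 members at 59.1 CPM against 29.8 CPM in Cd8 T cells and 70.3 CPM in regulatory T cells. Of 6 genes of follicular helper T cells compared with Cd8 T cells, Icos was at least 2-fold higher and 0 were lower (2 and 0 without the mixed cells, 7.31% and 4.06% of all genes), with a median log2 difference of 0.45 against 0.12 for all genes, and Izumo1r entered only through the members. Bcl6, their transcription factor, was in 37.4% of members at 73.3 CPM against 74.5 in Cd8 T cells, and Cxcr5, their homing receptor, in 7 members at 3.31 CPM. Maf, a factor that induces IL-21 and IL-10, was at 260 CPM against 25.2 CPM in Cd8 T cells and 492 CPM in regulatory T cells.

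Among cytokine receptors, Il7r was at 406 CPM in 72.3% of members and 1.79-fold above Cd8 T cells (1.62 to 1.98), in 6 of 6 libraries. Il4ra, the IL-4 receptor, and Il6st, the gp130 chain shared by IL-6 family receptors, were 2.35-fold and 3.72-fold lower than in Cd8 T cells, both in 6 of 6 libraries. Tnf was in 54 members at 76.2 CPM, with 64 of its 161 UMIs in a single cell of library 1, and Fasl, the ligand of the death receptor Fas, was in 61 members at 59.6 CPM against 99.2 CPM in Cd8 T cells.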
